A study of Mus musculus with 2 samples.

Results

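CD45, encoded by Ptprc, and 7 genes that act with it at the start of T cell receptor signaling were followed across the immune cells of a mouse liver cancer. The other 7 were Lck, Fyn, Csk, Ptpn22, Ptpn6, Zap70 and Lat. These 8 genes of the 32285 in the count matrices were chosen by name, with earlier results of the same cells known, so their levels are given as a description with no test. All 8 were found in both libraries. Hepatocellular carcinoma (HCC) was induced in wild-type male C57BL/6 J mice of 6 to 8 weeks by hydrodynamic tail vein injection of plasmids for human MYC, a guide against Trp53 and the sleeping beauty transposase. All mice received lenvatinib, an inhibitor of receptor tyrosine kinases, at 30 mg/kg for 25 days from 12 days after injection. The tumors were then treated either with lenvatinib at 30 mg/kg (lenvatinib) or with the same dose and palbociclib, an inhibitor of CDK4 and CDK6, at 100 mg/kg (combo). Live CD45+ cells were sorted and sequenced as 1 library per group. How many mice entered each library is not given in the sources used here, so treatment, mouse and library cannot be told apart.

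CD45 is a transmembrane tyrosine phosphatase found on nearly all nucleated blood cells. In T cells it removes the inhibitory C-terminal phosphate from the Src-family kinases Lck and Fyn, and the kinase Csk puts that phosphate back. An engaged receptor is phosphorylated by Lck, the kinase ZAP-70 docks on it, and ZAP-70 then phosphorylates the membrane adaptor LAT, on which the downstream enzymes assemble. The phosphatases encoded by Ptpn22 (PEP, a partner of Csk) and Ptpn6 (SHP-1) dampen the same step. NK cells use Lck, Fyn, ZAP-70 and SHP-1 behind their own receptors.

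Per library, 14201 of 14509 barcodes under lenvatinib and 11613 of 11989 under combo passed the limits of 6000 genes and 25% mitochondrial counts. Their median depth was 5541 and 5754 unique molecular identifiers (UMIs), and the libraries shared 49 barcodes. Cells were gated by the UMIs of marker genes. T cells had Cd3e with either Cd8b1 (CD8 T, 2701 cells under lenvatinib and 2033 under combo) or Cd4 (CD4 T, 481 and 421). The other gates were NK by Ncr1 (2509 and 981), B by Cd79a (535 and 604), monocyte/macrophage (Mo/MΦ) by Csf1r (192 and 432), neutrophil by Csf3r (681 and 1468) and dendritic by Flt3 (249 and 217). Cells with genes of over 1 lineage were left out (2327 and 2667), and the gates held 51.7% and 53.0% of kept cells. Also outside the gates were cells with Cd3e but neither Cd4 nor Cd8b1 (1899 and 1259) or both (92 and 82). Cells with no lineage gene numbered 2535 and 1449. The T cell results thus do not cover all cells with Cd3e. Of the further markers listed for each gate, all 5 for B and neutrophil cells were highest there in both libraries. So were at least 5 of 6 for Mo/MΦ, 4 of 5 for NK cells and 5 of 7 for dendritic cells. All 5 of each T cell gate were highest in 1 of the 2 T cell gates, though not always in their own. Levels are given as CPM, the UMIs of a gene per 1000000 UMIs of all cells in a gate. Their 95% intervals, as those of ratios and shares, cover counting error only. Markers within the Mo/MΦ gate differed between libraries. C1qa was 841 CPM under lenvatinib and 135 CPM under combo, Ms4a7 165 and 14.5 CPM, and Lyz2 4878 and 10545 CPM. In the dendritic gate Fscn1 was 53.6 and 2.00 CPM. Ratios in these 2 gates may thus compare unlike mixes of cells, which was not tested. Neutrophil genes were counted in all gates, more so under combo. The summed level of 5 neutrophil genes (S100a8, S100a9, Retnlg, Lcn2 and Csf3r) outside the neutrophil gate ranged from 231 to 2449 CPM under lenvatinib and from 1713 to 19433 CPM under combo, and with these genes left out of the total 54 of the 56 ratios of a member in a gate stayed within their counting interval. How far RNA carried over between cells moved the levels was not tested. Hepatocyte genes summed to at most 33.9 CPM in any gate.

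The genes lie on 7 chromosomes of the mm10 genome, and their coordinates, all for protein-coding genes, are from GENCODE M21. Ptprc (ENSMUSG00000026395, chr1:138062861-138175708, minus strand) and Zap70 (ENSMUSG00000026117, chr1:36761798-36782818, plus strand) share chromosome 1. The kinase genes are Lck (ENSMUSG00000000409, chr4:129548344-129573641, minus strand), Fyn (ENSMUSG00000019843, chr10:39368855-39565381, plus strand) and Csk (ENSMUSG00000032312, chr9:57626646-57653631, minus strand). The remaining genes are Ptpn22 (ENSMUSG00000027843, chr3:103859795-103912247, plus strand), Ptpn6 (ENSMUSG00000004266, chr6:124720707-124738714, minus strand) and Lat (ENSMUSG00000030742, chr7:126363824-126369570, minus strand). Gm15472 and Gm43065 lie on the same strand inside Ptpn22, so reads there can fall to more than 1 gene. Gm16364 and Gm16365 lie antisense to Fyn, and Gm20531 to Ptpn6.

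The sequences before the transcription starts of Ptprc, which was found in every gate, and of Lck, Zap70 and Lat, which were high in T cells or in T and NK cells, are shown to set the broad gene beside the restricted ones. They are from RefSeq (GRCm38.p6), run 5′ to 3′ on the gene's strand, and cover 250 to 21 bases before a start. Lck has a distal and a proximal promoter, both known to be used in the T lineage, and the 3′ counts do not tell the transcripts of each apart. The windows of Ptprc and of the proximal Lck promoter lie inside the GENCODE coordinates of their genes, because the RefSeq starts used lie there. Capitals mark AGGAAG on either strand, which holds the GGAA core that factors of the ETS family recognise.
Ptprc, chr1:138175326-138175555, minus strand: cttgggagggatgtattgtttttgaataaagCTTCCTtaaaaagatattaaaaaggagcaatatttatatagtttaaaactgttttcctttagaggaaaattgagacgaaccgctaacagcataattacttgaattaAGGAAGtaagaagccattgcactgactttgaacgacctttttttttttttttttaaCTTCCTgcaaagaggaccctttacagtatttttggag
Lck distal, chr4:129573662-129573891, minus strand: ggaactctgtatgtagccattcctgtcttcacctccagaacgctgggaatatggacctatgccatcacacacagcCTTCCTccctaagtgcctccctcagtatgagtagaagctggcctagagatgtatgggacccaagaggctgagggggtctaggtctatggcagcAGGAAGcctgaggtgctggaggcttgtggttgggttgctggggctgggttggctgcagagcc
Lck proximal, chr4:129558393-129558622, minus strand: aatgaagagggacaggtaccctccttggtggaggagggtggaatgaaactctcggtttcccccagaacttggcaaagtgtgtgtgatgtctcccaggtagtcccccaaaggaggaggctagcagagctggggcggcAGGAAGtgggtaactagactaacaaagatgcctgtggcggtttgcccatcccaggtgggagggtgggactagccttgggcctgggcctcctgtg
Zap70, chr1:36761548-36761777, plus strand: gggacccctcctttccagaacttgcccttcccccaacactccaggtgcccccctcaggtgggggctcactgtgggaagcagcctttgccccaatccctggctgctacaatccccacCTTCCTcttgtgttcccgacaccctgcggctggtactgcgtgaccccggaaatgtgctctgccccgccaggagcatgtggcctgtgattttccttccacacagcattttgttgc
Lat, chr7:126369589-126369818, minus strand: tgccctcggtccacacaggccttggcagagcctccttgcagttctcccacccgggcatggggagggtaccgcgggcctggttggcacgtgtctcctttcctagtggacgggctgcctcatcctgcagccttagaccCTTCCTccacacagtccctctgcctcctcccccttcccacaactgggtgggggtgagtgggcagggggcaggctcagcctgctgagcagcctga
The letters occurred in 10 of 14 such windows of the 8 genes, and in at least 1 window of every gene but Fyn. Of all 32851 windows of this length, 27.2% held them. The letters TGTGGT on either strand, which the RUNX family recognises, occurred in 3 of the 14 windows and in 13.2% of all windows. Both of the overlapping Ptprc windows are counted, and a match describes the letters only.

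Ptprc was lower under combo in all 7 gates. In CD8 T cells it was 1689.9 CPM under lenvatinib and 1155 CPM under combo, a ratio of 0.684 (0.666 to 0.702). CD4 T cells held 1562 and 1073 CPM, with a ratio of 0.687. NK cells, the gate with the highest level in both libraries, held 2322 and 1563 CPM, with a ratio of 0.673 (0.655 to 0.692). The ratio was nearly the same in these 3 gates, and that of dendritic cells was 0.630. Per cell, CD8 T cells held 13.3 Ptprc UMIs under lenvatinib and 7.59 under combo. The count per cell, which also moves with depth, was lower in 6 gates but not in neutrophils, which held 5.87 and 6.99, and it was nearly level in Mo/MΦ, 7.08 and 6.94. B cells had the lowest levels, 832 CPM under lenvatinib and 449 CPM under combo. Mo/MΦ held 1195 and 908 CPM, the ratio closest to 1 of the 7 (0.760, 0.695 to 0.831). Neutrophils held 1724 and 967 CPM, and dendritic cells 1063 and 670.3 CPM. Neutrophils stood above CD8 T and CD4 T cells under lenvatinib and below both under combo. Under lenvatinib, though, the neutrophil interval (1671 to 1778 CPM) overlapped that of CD8 T cells (1672 to 1707 CPM). The summed neutrophil genes took up 119001 CPM of the neutrophil gate under lenvatinib and 263106 CPM under combo. With them out of the total, the Ptprc ratio was 0.671 in neutrophils and 0.685 in CD8 T cells. Whether the order still changes on that total was not tested. In no gate did the intervals of the 2 libraries overlap, but with 1 library per group the spread between mice is unknown.

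Most genes were also lower under combo on this scale. The median log2 ratio of all genes with at least 100 UMIs over both libraries was -0.14 in CD8 T cells, -0.25 in CD4 T cells, -0.14 in NK cells, -0.40 in B cells, -0.10 in Mo/MΦ, -0.51 in neutrophils and -0.07 in dendritic cells. The list of 3 ribosomal protein genes (Rpl13, Rplp0 and Rps3) stood above them, at a median of 0.33, 0.64 and 0.28 in CD8 T, CD4 T and NK cells. Relative to the medians of all genes, Ptprc was still lower in every gate, with a log2 ratio of -0.40 in CD8 T cells, -0.30 in CD4 T cells and -0.43 in NK cells. It was -0.49 in B cells, -0.30 in Mo/MΦ, -0.33 in neutrophils and -0.59 in dendritic cells. The T and NK gates were thus less alike on this scale. Ptprc encodes the protein the cells were sorted on, so its presence is not a finding. Before thinning, a Ptprc UMI was found in 95.4% of kept cells in each library. After each cell was thinned to 2000 UMIs, the share of CD8 T cells with a Ptprc UMI was 94.3% under lenvatinib and 87.7% under combo. In B cells the shares were 77.8% and 62.1%, the widest gap among the 7 gates. The counts are of all Ptprc transcripts and do not tell the CD45 isoforms apart.

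**Figure D1:**
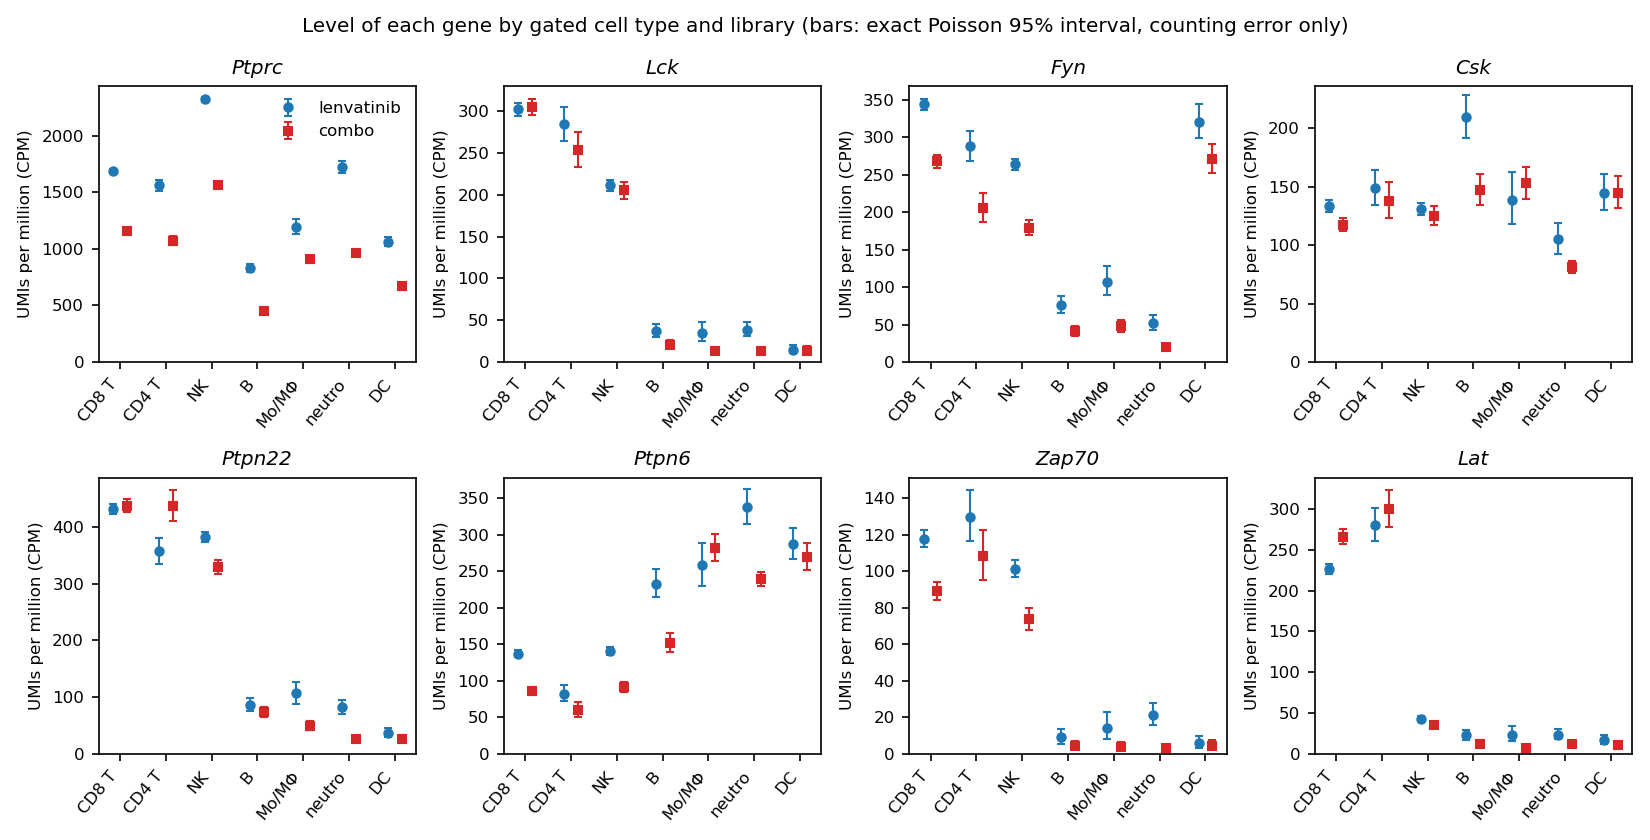
Levels of the 8 genes (CPM, vertical axis from 0) in 7 gated cell types (horizontal axis, Mo/MΦ for monocyte/macrophage, neutro for neutrophil, DC for dendritic) under lenvatinib (circles) and combo (squares), with exact Poisson 95% intervals. Ptprc is present and lower under combo in all 7 gates, Lck and Zap70 stand out in T and NK cells, Lat in T cells and Ptpn6 in myeloid cells.

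Lck, the Src-family kinase bound to the CD4 and CD8 coreceptors, differed little between the libraries in the cells that use it. CD8 T cells held 302 CPM under lenvatinib and 305 CPM under combo, a ratio of 1.01 (0.956 to 1.07). CD4 T cells held 284 and 254 CPM (0.893, 0.766 to 1.04), and NK cells 211 and 205 CPM (0.971, 0.896 to 1.05). The intervals of these 3 ratios include 1, and the order of CD8 T, CD4 T and NK cells was the same in both libraries, with ranges over the libraries that did not overlap. Relative to the median of all genes, Lck was 0.16, 0.08 and 0.10 on the log2 scale, so its direction in CD4 T and NK cells depends on the scaling. In CD8 T cells it was below 0 under 1 of the 10 settings run. B cells, Mo/MΦ, neutrophils and dendritic cells held 12.7 to 38.8 CPM, and those 4 gates were not in a fixed order.

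Fyn, the second Src-family kinase of T cells, had a different pattern from Lck. It was 344 CPM under lenvatinib and 268 CPM under combo in CD8 T cells (0.779, 0.737 to 0.824). The ratio was 0.714 in CD4 T cells (288 and 206 CPM) and 0.679 in NK cells (264 and 179 CPM). The dendritic gate held as much Fyn as T cells, 321 and 271 CPM, with ranges over the libraries that overlap those of CD8 and CD4 T cells. This gate was not divided by kind of dendritic cell, so which of its cells held Fyn was not tested. The dendritic log2 ratio was -0.17 relative to the median of all genes and above 0 under 1 of the 10 settings run, 0.10 with 2 UMIs of Flt3 needed to enter the gate. In contrast, dendritic cells held little Lck, 14.9 and 13.7 CPM. Mo/MΦ, B cells and neutrophils held less Fyn than the 4 other gates in both libraries, from 20.6 to 107 CPM.

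Csk, the kinase that opposes CD45 on Lck and Fyn, was the most even of the 8 genes across gates. Its levels ran from 81.1 CPM in neutrophils under combo to 209 CPM in B cells under lenvatinib. CD8 T cells held 134 and 118 CPM (0.880, 0.807 to 0.960), CD4 T cells 149 and 138 CPM (0.927, 0.750 to 1.14), and NK cells 131 and 125 CPM (0.959, 0.865 to 1.06). Relative to the median of all genes the T cell and NK values were -0.04, 0.14 and 0.08 on the log2 scale, so the direction in CD4 T and NK cells depends on the scaling. The interval of the ratio lay below 1 in CD8 T cells and included 1 in CD4 T and NK cells.

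**Figure D2:**
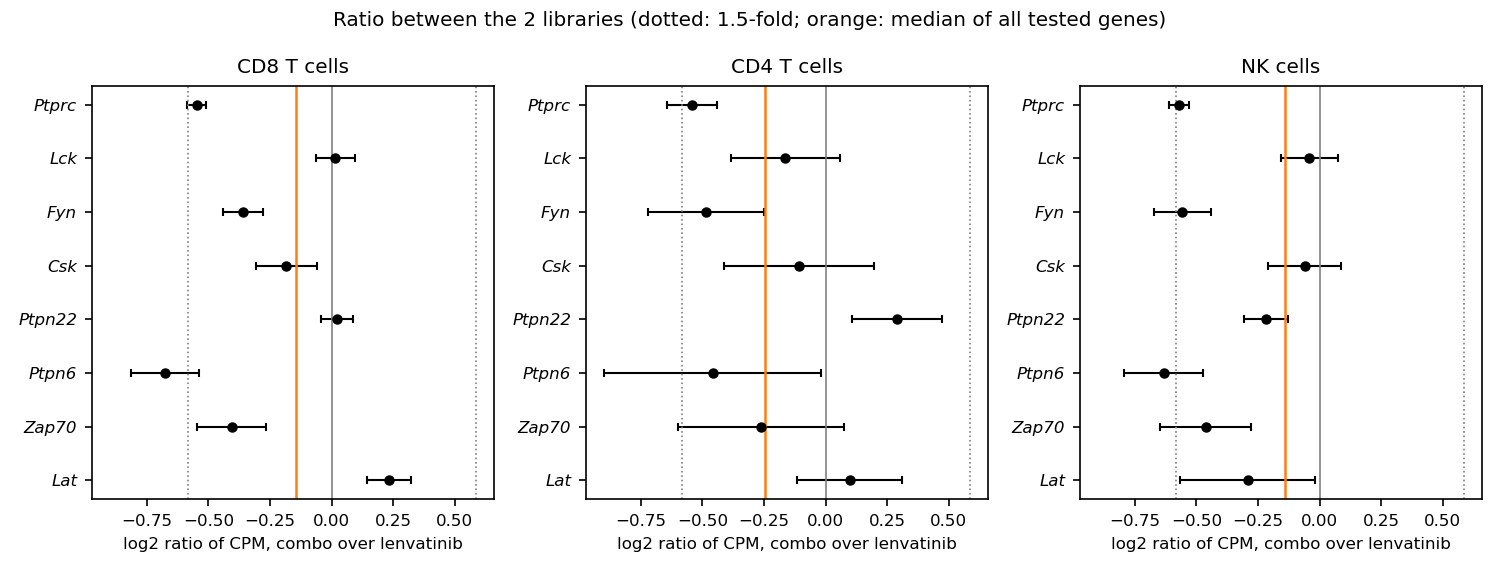
Log2 ratio of CPM, combo over lenvatinib (horizontal axis), of the 8 genes (vertical axis) in CD8 T, CD4 T and NK cells. Bars join the bounds of the Poisson intervals of both libraries, dotted lines mark 1.5-fold and the orange line the median of all tested genes. Ptprc lies left of that median in all 3 panels and Lat lies right of 0 in both T cell panels.

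The inhibitory phosphatases differed from each other. Ptpn22 was highest in T and NK cells, with 431 CPM under lenvatinib and 438 CPM under combo in CD8 T cells (1.02, 0.969 to 1.06), a direction that turned under 1 of the 10 settings run. In CD4 T cells it was higher under combo, 358 and 437 CPM (1.22, 1.08 to 1.39), and in NK cells lower, 383 and 329 CPM (0.860, 0.808 to 0.914). The CD4 T gate held 159 cells with Foxp3, the factor that defines regulatory T cells, under lenvatinib and 22 under combo. Within CD4 T cells lacking a Foxp3 UMI the Ptpn22 ratio was 1.07 (0.937 to 1.23), an interval that includes 1. B and myeloid gates held 25.3 to 106 CPM.

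Ptpn6 was instead highest in myeloid cells. Neutrophils (338 and 239 CPM), dendritic cells (287 and 269.6 CPM) and Mo/MΦ (258 and 282 CPM) held more than any lymphocyte gate in the same library, and the ranges of these 3 myeloid gates overlapped. CD8 T cells held 137 CPM under lenvatinib and 85.5 CPM under combo (0.626, 0.569 to 0.688), and NK cells 141 and 90.8 CPM (0.645, 0.576 to 0.721). CD4 T cells had the lowest levels, 82.0 and 59.8 CPM (0.728, 0.536 to 0.987). Relative to the median of all genes Ptpn6 stood at -0.53 in CD8 T cells and -0.49 in NK cells on the log2 scale. In Mo/MΦ and dendritic cells the ratios were 1.09 and 0.941, and both intervals included 1. Over all kept cells, gated or not, the ratio was 1.05, although it was below 1 in every gate but Mo/MΦ. The neutrophil ratio of 0.708 was 0.01 on the log2 scale relative to the median of all genes, so its direction depends on the scaling. Neutrophils made up 4.80% of kept cells under lenvatinib and 12.6% under combo.

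Zap70, the kinase recruited to the phosphorylated receptor, was found at its highest levels in T and NK cells. CD4 T cells held 129.8 CPM under lenvatinib and 108 CPM under combo (0.834, 0.660 to 1.05), CD8 T cells 118 and 89.0 CPM (0.755, 0.686 to 0.832), and NK cells 101 and 73.6 CPM (0.726, 0.639 to 0.824). It was lower under combo in all 3, with intervals below 1 in CD8 T and NK cells. Relative to the median of all genes it stood at -0.26 in CD8 T and -0.32 in NK cells on the log2 scale. In CD4 T cells it stood at -0.02, so there Zap70 differed little from the median gene. The other 4 gates held 12 to 49 UMIs in a library, 3.02 to 21.1 CPM.

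Lat was the member with the widest gap between T and NK cells. CD4 T cells held 280.4 CPM under lenvatinib and 300.1 CPM under combo (1.07, 0.923 to 1.24), and CD8 T cells 227 and 267 CPM (1.18, with a lower bound of 1.11). NK cells held 42.6 and 34.8 CPM (0.817, 0.675 to 0.987). The mean of the CD8 T levels was 6.38 times that of the NK levels. Per library, the NK level of Lat was 0.188 and 0.130 of that in CD8 T cells, and the NK level of Lck was 0.700 and 0.673 of it. In CD8 T cells Lat was the only one of the 8 genes whose interval lay above a ratio of 1, and it stood at 0.38 relative to the median of all genes on the log2 scale.

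Ptpn6 was the member with the lowest ratio in CD8 T and NK cells, and the lowest ratio of a counted member was that of Ptpn22 in neutrophils (0.308). With a limit of 1.5-fold in either direction, 1 of the 8 genes, Ptpn6, was past it in CD8 T cells, where 16.2% of 9889 genes were. No member was past it in CD4 T cells, against 25.6% of 5658 genes. In NK cells the count was 1, again Ptpn6, against 16.7% of 9481 genes. Relative to the median of all genes Ptpn6 was inside the limit in both gates. Ptprc in NK cells and in both T cell gates lay just inside the limit of 0.667. B cells had 4 of 6 members with enough counts past the limit (Ptprc, Lck, Fyn and Ptpn6), beside 38.1% of 5407 genes. Relative to the median of all genes none of these 4 was past it, at -0.49, -0.40, -0.49 and -0.21 on the log2 scale, and without the 5% of cells with most UMIs Lck and Ptpn6 were inside it. Mo/MΦ had 2 of 5 (Fyn and Ptpn22), beside 21.2% of 5235 genes. Neutrophils had 5 of 7 (Ptprc, Lck, Fyn, Ptpn22 and Lat), beside 48.5% of 6574 genes. In the neutrophil gate the receptor genes Cd3d, Cd3g and Trac were lower as well, 143 CPM summed under lenvatinib and 76.4 under combo, as were 9 of 9 tested genes of the receptor list (median log2 ratio -1.31), and their part in the Lck and Lat values was not tested. With the neutrophil genes out of the total Ptprc was inside the limit, at a ratio of 0.671. Dendritic cells had 1 of 5 (Ptprc), beside 15.5% of 6097 genes. All these members were lower under combo. The members with under 100 UMIs in a gate were left out of these counts: Zap70 in B cells and the 3 myeloid gates, Lat in B, Mo/MΦ and dendritic cells, and Lck in Mo/MΦ and dendritic cells. In B cells the erythroid genes Hba-a1, Hba-a2, Hbb-bs and Hbb-bt summed to 2701 CPM under lenvatinib and 7.47 CPM under combo. With mitochondrial, ribosomal protein and hemoglobin genes out of the total, the log2 ratio of Ptprc in B cells was -0.88, against -0.89 with them. In neutrophils the 5 neutrophil genes summed to 119001 and 263106 CPM.

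The differences were also read within subsets of the T cell gates, each set by single genes. Pdcd1 encodes the checkpoint receptor PD-1, and 358 CD8 T cells had a UMI of it under lenvatinib and 431 under combo. In these cells Ptprc was 1609 CPM under lenvatinib and 1147 CPM under combo (0.713, 0.668 to 0.760), so it was lower under combo there as in the whole gate. Fyn was 459 and 332 CPM (0.723, 0.641 to 0.816), and Zap70 151 and 95.1 CPM (0.629, 0.504 to 0.784). Both kinase genes were lower under combo, with intervals below 1, and Fyn stood above its level in the whole CD8 T gate in both libraries. The median of all genes was not taken in any subset, and it was -0.14 on the log2 scale in the whole CD8 T gate. How far the subset ratios reflect a shift of most genes was thus not tested.

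Lat did not differ in this way. With Pdcd1 it was 289 CPM under lenvatinib and 289 CPM under combo (0.998, 0.867 to 1.15), whereas the ratio of the whole CD8 T gate was 1.18. Lck gave 1.02 (0.892 to 1.17), and the intervals of both genes included 1. Ptpn6 was 86.8 and 71.1 CPM, below its level in the whole gate in both libraries, and the interval of its ratio included 1 (0.624 to 1.07). Csk gave 0.750 (0.603 to 0.933). The cells with Pdcd1 are part of the CD8 T gate, so these values are not independent of those of the gate.

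In CD4 T cells with Foxp3 the combo library held only 22 cells. Ptprc was 1625 CPM under lenvatinib and 1319 CPM under combo there (0.812, 0.659 to 0.994), and 1528 and 1059 CPM in those without Foxp3 (0.693, 0.640 to 0.750). For Lat the interval with Foxp3 ran from 0.985 to 2.37, too wide to read a difference. Under lenvatinib, where the subset with Foxp3 was larger, Ptpn22 was 254 CPM with Foxp3 (223 to 288) and 415 CPM without (385 to 446), with no overlap of the counting intervals. T cells with UMIs of at least 2 of 10 cell cycle genes numbered 553 under lenvatinib and 124 under combo. In them Ptprc was 1483 and 1007 CPM (0.679), close to the ratio of the CD8 T gate.

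**Figure D3:**
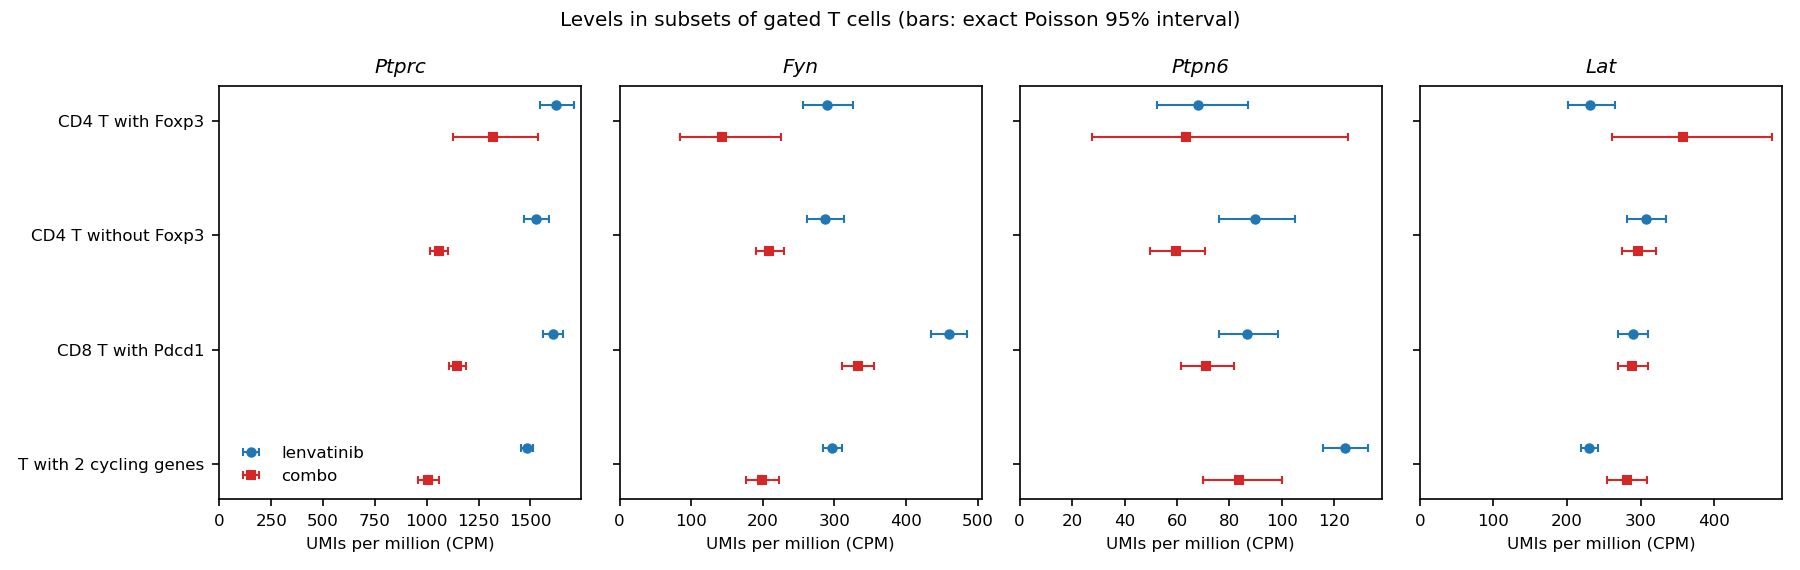
Levels of Ptprc, Fyn, Ptpn6 and Lat (CPM, horizontal axes from 0) in 4 subsets of gated T cells (vertical axis) under lenvatinib (circles) and combo (squares), with exact Poisson 95% intervals. Ptprc and Fyn are lower under combo in all 4 rows, whereas the Lat values of CD8 T cells with Pdcd1 overlap between libraries.

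The share of cells with a UMI was compared at equal depth. After thinning to 2000 UMIs, Lck was found in 47.0% of CD8 T cells under lenvatinib and 46.8% under combo. In B cells, which should lack Lck or hold little of it, the shares were 7.34% and 5.11%. The median depths before thinning were 6877 and 5507 UMIs in CD8 T cells and 3202 and 3502 in B cells. Without thinning, the Lck shares were 83.8% and 81.3% in CD8 T cells. Lat was found in 43.0% and 45.9% of CD4 T cells and in 8.39% and 7.95% of NK cells. The receptor gene Cd3d was found in 8.39% and 5.26% of the same NK cells, shares near those of Lat. Zap70 was found in 18.3% and 12.6% of NK cells. B cells had 1.68% and 0.882%.

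Of the 8 genes, a thinned CD8 T cell held a UMI of 3.56 on average under lenvatinib and 3.30 under combo. NK cells held 3.03 and 2.66, and B cells 1.95 and 1.58. At least 5 of the 8 were found in 22.2% and 17.6% of CD8 T cells and in at most 0.858% of B, Mo/MΦ, neutrophil and dendritic cells in each library.

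**Figure D4:**
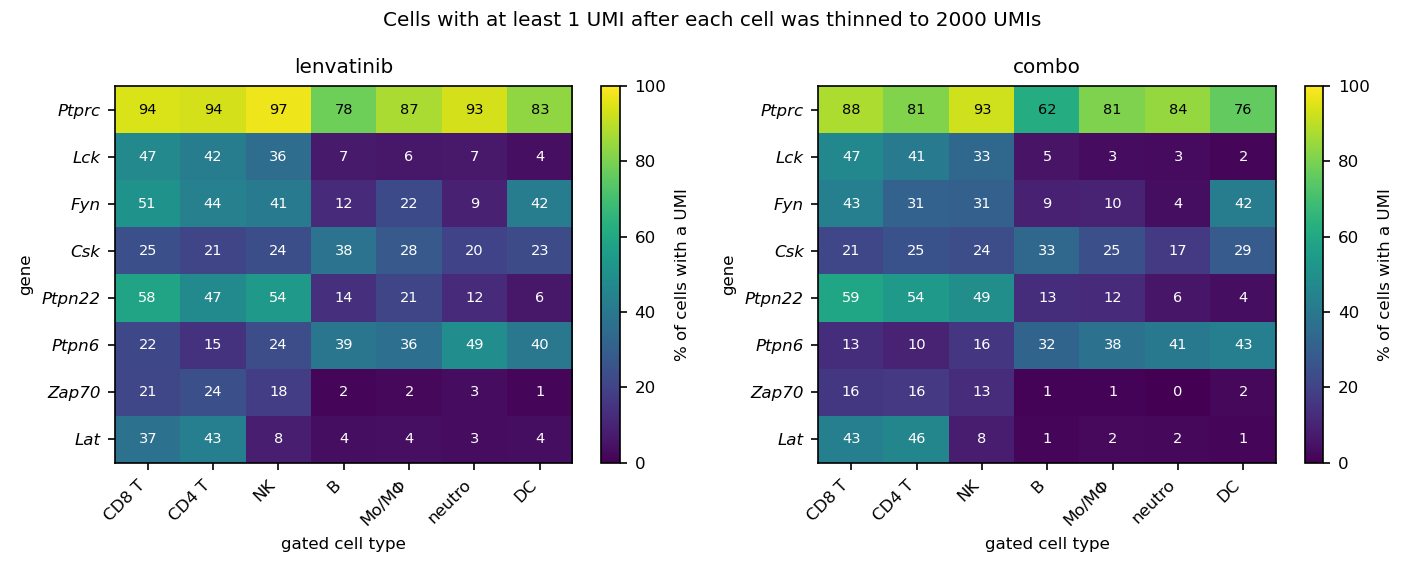
Percentage of cells with at least 1 UMI of each gene (rows) in each gated cell type (columns) after thinning to 2000 UMIs, for lenvatinib (left) and combo (right), with the rounded percentage in each field. Percentages of Lck, Zap70 and Ptpn22 are higher in the first 3 columns than in the last 4, those of Lat are highest in the first 2, and those of Ptpn6 in the last 4. Zap70 fields are dark throughout, with 24.3% in CD4 T cells under lenvatinib.

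Each gene was set against the summed UMIs of the receptor genes Cd3d, Cd3g and Trac, to read low counts outside the T cell gates. Free RNA from 1 source keeps its genes in 1 ratio, but here it can have more than 1 source. NK cells held 4023 Lck UMIs and 2408 receptor UMIs under lenvatinib. The gates other than T cells were also chosen to lack Cd3e. A ratio above that of CD8 T cells thus cannot tell expression from carried-over RNA. Lck UMIs per receptor UMI were 0.160 under lenvatinib and 0.127 under combo in CD8 T cells, 1.67 and 1.53 in NK cells, and 0.372 and 0.255 in B cells. NK cells thus held about as many Lck UMIs as receptor UMIs or more, unlike T cells. For Zap70 the values were 0.0625 and 0.0371 in CD8 T cells, 0.801 and 0.548 in NK cells, and 0.0897 and 0.0511 in B cells. The B cell values rest on 21 and 14 UMIs, and whether they are expression or carried-over RNA was not tested. In neutrophils Zap70 gave 0.148 and 0.0395. Lat gave 0.120 and 0.111 in CD8 T cells, 0.163 and 0.157 in neutrophils and 0.336 and 0.259 in NK cells. For B cells the Lat values were 0.226 and 0.146, and for dendritic cells 0.291 and 0.248. Fyn stood far from the T cell value in dendritic cells, 5.65 and 6.50 against 0.183 and 0.112 in CD8 T cells.

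**Figure D5:**
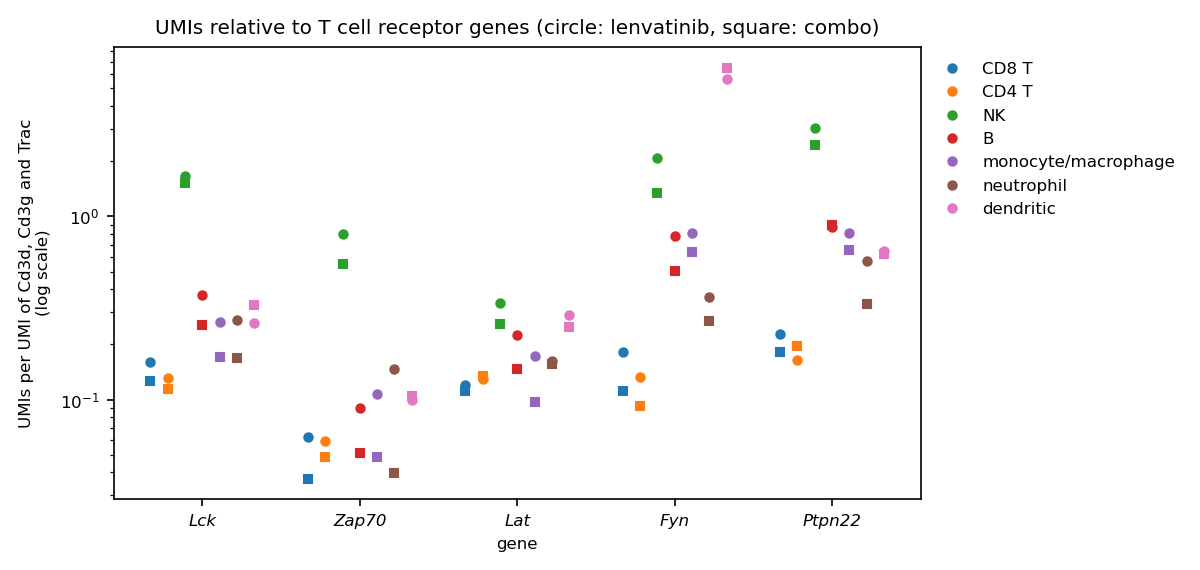
UMIs of Lck, Zap70, Lat, Fyn and Ptpn22 per UMI of Cd3d, Cd3g and Trac (vertical log axis) in the 7 gates (colors) under lenvatinib (circles) and combo (squares). NK cells stand highest for Lck, Zap70, Lat and Ptpn22, and dendritic cells for Fyn.

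Across the 14 points of 7 gates and 2 libraries, which share libraries and depth, the correlation of log2(CPM + 1) is given as a description. Lck and Zap70 had the most alike profiles of the 28 pairs (r = 0.99), followed by Lck and Ptpn22 (0.98). Lck and Ptpn6 were the most opposed (-0.85), and Ptprc with Csk gave -0.28. Among 4975 other genes with at least 50 CPM in 1 point, the profiles most like Lck were those of Prkcq (0.99), Skap1 (0.99) and Tcf7 (0.99). Prkcq encodes the kinase PKC-theta, Skap1 an adaptor and Tcf7 the transcription factor TCF-1. Zap70 was most like Tcf7 (0.99), Thy1 (0.99) and Sh2d1a (0.99), and Lat most like Trbc2 (0.98), Cd3g (0.97) and Bcl11b (0.97). Ptprc was most like Prex1 (0.94), Itgal (0.94), which encodes the integrin chain of LFA-1, and Nr4a3 (0.93). The nearest genes were Dynll2, Psme1 and Cox20 for Fyn, Ddx54, Foxn3 and Scaf11 for Csk, and Sgk3, Dclre1c and Nrros for Ptpn6 (0.92 to 0.97). For Ptpn22 they were Ms4a4b, Prkcq and Gm15472 (0.98 to 0.99), the last of which lies inside Ptpn22.

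Downstream of LAT, several genes of the relay to RAS, NF-kB and NFAT had lower CPM under combo, mainly those for NFAT factors and calcineurin. Of the 10 genes of the list, 3 were past 1.5-fold lower in CD8 T cells, 6 in CD4 T cells and 5 in NK cells, and none was past it higher. The median log2 ratios were -0.52, -0.63 and -0.58, each below the median of all genes. Of all genes tested, 16.2%, 25.6% and 16.7% were past the limit in either direction, and 12.02%, 22.7% and 12.8% were past it lower. These shares stand beside the counts of the lists that follow as well. The list counts were not taken relative to the median of all genes, which was -0.14, -0.25 and -0.14 in these gates. Ratios just past 0.667 would be inside the limit relative to that median, so fewer of the 10 genes would be past it lower. Nfatc3, a calcium-dependent transcription factor, was 161 CPM under lenvatinib and 96.0 CPM under combo in CD8 T cells (ratio 0.597). In CD4 T cells its ratio was 0.494 and in NK cells 0.614. Nfatc2 gave 0.613, 0.578 and 0.539 in the same gates. The calcineurin gene Ppp3cb gave 0.643 in CD8 T cells, and Ppp3ca gave 0.514 in CD4 T and 0.630 in NK cells. Nfatc1 gave 0.640 in NK cells, and Ppp3cb, named after its values were seen, 0.657. Bcl10, an adaptor of the path to NF-kB, lay above 1 in all 3 gates, at 1.19 in CD8 T and 1.45 in CD4 T cells, and was likewise named after its values were seen. Rasgrp1, an activator of RAS, had the lowest CD4 T ratio of the list, 0.406, at 171 CPM under lenvatinib and 69.3 CPM under combo.

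At the receptor itself the values stood higher. Of 11 genes for the receptor, coreceptors and accessory receptors, 1 was past the limit higher in CD8 T cells. This was Cd3g, a receptor subunit, at 620.2 CPM under lenvatinib and 983 CPM under combo (ratio 1.59). The list's median log2 ratio was 0.23 in CD8 T cells and -0.05 in CD4 T cells, where none of 10 tested genes was past it. In NK cells Cd8a (0.594) and Cd6 (0.586) were past it lower from low counts, 47 and 33 UMIs under combo. Among the 12 partners of LAT, none was past the limit in CD8 T cells. Sos1, an activator of RAS, and Itpkb, an inositol kinase, were lower in CD4 T cells (0.458 and 0.617) and in NK cells (0.664 and 0.581). Themis was also past the limit in NK cells, at 0.633, with intervals that overlap, and was named after its values were seen.

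Among other kinases of the Src, Syk and Tec families, 2 of 7 tested were lower and 1 higher in CD8 T cells. Txk, a Tec-family kinase of T cells, was 427 CPM under lenvatinib and 274 CPM under combo (ratio 0.640), and Yes1, a Src-family kinase, gave a ratio of 0.345 from 43.6 CPM under lenvatinib. Lyn, a Src-family kinase of B and myeloid cells, was higher, at 7.64 CPM under lenvatinib and 11.8 CPM under combo (1.55). The 5 neutrophil genes summed to 452 and 2209 CPM in the same cells. None of the 2 tested in CD4 T cells or of the 7 tested in NK cells was past the limit. Of 8 genes for CD45 partners and other phosphatases, none was past it in CD8 T cells. In CD4 T cells Ubash3b (0.500), Ptpn7 (0.634) and Ubash3a (0.664) were lower, and in NK cells Ubash3a (0.631). Ubash3a and Ubash3b encode the phosphatases STS-2 and STS-1, which act on ZAP-70.

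Of 13 genes that brake the same step, 2 were past the limit lower in CD8 T cells, 3 of 11 tested in CD4 T cells and 1 of 12 in NK cells, and none higher. The list's median log2 ratios were -0.27, -0.20 and -0.15 against -0.14, -0.25 and -0.14 for all genes, and the counts are near the shares of all genes past the limit lower, 22.7% in CD4 T and 12.8% in NK cells. Cbl, a ubiquitin ligase, was 147 CPM under lenvatinib and 91.9 CPM under combo in CD8 T cells (0.627) and gave a ratio of 0.500 in CD4 T cells. The diacylglycerol kinase gene Dgka gave 0.666 in CD8 T cells and Dgkz 0.617 in CD4 T cells. Sla, an adaptor that lowers receptor levels, gave 0.652 in CD4 T and 0.663 in NK cells. Of 7 genes that receptor signals are known to induce, none was past the limit in CD8 T cells, and their median log2 ratio was -0.19, near the -0.14 of all genes. Nr4a3, an orphan nuclear receptor, was lower in CD4 T cells (0.508) and in NK cells, at 236 CPM under lenvatinib and 141 CPM under combo (0.597). Egr1 (0.650) and Egr2 (0.629) were also lower in NK cells.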

How the data were processed

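For the 2 libraries of sorted live CD45+ cells (10x Genomics 3′ v3), the values used are UMI counts as deposited by the authors, with no normalization. Per the methods and the labels, reads were mapped to mm10 with Cell Ranger 5.0.1, whereas the matrix headers name version 6.0.1. Cells with over 6000 genes or over 25% mitochondrial UMIs were removed, as in the study. UMIs were summed per gate and library (Python 3.11.15, numpy 2.4.6, scipy 1.17.1) and divided by the gate's total, with exact Poisson intervals for levels and exact Clopper-Pearson intervals for shares. The bounds of a ratio divide the outer bounds of both levels. For shares, each cell was thinned once to 2000 UMIs, leaving out those with fewer. With 1 library per group no test was run. Scripts were checked on simulated data. No doublet caller was run, and cells with genes of over 1 lineage were left out. Genes with at least 100 UMIs over both libraries in a gate were compared. Members, lists and limits were chosen with earlier results of these data known. Named genes were all members, up to 4 list genes per direction and gate past 1.5-fold with intervals apart, and the 3 nearest profiles of each member among genes other than the gate genes, and the text says where another gene was named. CD8 T cells were also divided by a further gene, which is not reported here. Alternatives changed the cell filter, gates, total, per-cell mean, thinning, deepest cells and fold limit.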

Additional observations from a re-analysis of the deposited data

How the results depend on the processing

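Ptprc was lower under combo in all 7 gates under each of the 9 alternatives, with ratios from 0.528 to 0.814, and no member past 1.5-fold changed direction. The counts of members past 1.5-fold moved more. With cells counted in every gate they meet, all 8 members had enough counts in each gate, and the counts became 0 in CD8 T, 1 in CD4 T, 3 in NK, 6 in B, 4 in Mo/MΦ and 5 in dendritic cells and 6 in neutrophils. Relative to the median ratio of all genes, an alternative chosen after seeing the data, they became 0 in CD8 T, 0 in NK, 0 in B cells and 3 in neutrophils. With 2 UMIs of the lineage gene they became 1 in CD4 T and 0 in dendritic cells, with the mean of per-cell CPM 2 in dendritic cells, and without the top 5% of cells by UMIs 2 in B cells. A limit of 0.32 on the log2 scale gave 4 in CD8 T, 3 in CD4 T, 4 in NK and 2 in dendritic cells, and a limit of 2-fold 0 in CD8 T, 0 in NK, 0 in B and 0 in dendritic cells and 3 in neutrophils. The causes were not tested. Of the 56 ratios of a member in a gate, 56 stayed within their counting interval without a filter on cells, and 54 with the neutrophil genes left out of the total, also chosen after seeing the data. The number was 43 with cells counted in every gate they meet and 30 relative to the median of all genes. Zap70 and Lat in B and myeloid gates rest on few UMIs, which limits their ratios. No paired analysis was possible because each group had 1 library, and the values have no replicate check.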
